A study of Mus musculus with 6 samples.

Results

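The genes described here are the integrin subunits, the laminin chains and 5 further genes of the basement membrane (*Nid1*, *Nid2*, *Hspg2*, *Agrn* and *Sparc*). They were taken by gene symbol among the protein-coding genes of the count table, at any count and with no measured value used, which gave 37 members of 55416 genes. RNA-Seq was performed on coronary endothelial cells (ECs) of mouse hearts at E15.5, with 3 libraries from *ControlΔEC* and 3 from *Wt1KOΔEC* embryos, to ask which transcripts depend on *Wt1* in ECs. *ControlΔEC* embryos were *Pdgfb-CreERT2/+; Wt1+/+; R26-mTmG/+*, and *Wt1KOΔEC* embryos were *Pdgfb-CreERT2/+; Wt1 LoxP/LoxP; R26-mTmG/+*. Both groups therefore carried the Cre driver and the reporter, came from crosses that give both genotypes in a litter, and were exposed to tamoxifen (75 mg/kg, given to the dam by gavage from E11.5 to E13.5). The Cre is driven by *Pdgfb*, and any cell in which it had recombined the reporter carried membrane GFP (mGFP) and could enter the sort from collagenase-digested ventricles. How many embryos made up a library was not given in the sources used here. The labels call the libraries biological replicates.

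Integrins are cell surface receptors made of one alpha and one beta chain, and the pair decides the ligand: fibronectin, collagen, laminin or a blood protein. Laminins are trimers of an alpha, a beta and a gamma chain that polymerise under the endothelium, where nidogens and the heparan sulphate proteoglycan perlecan tie them to the type IV collagen network to form the basement membrane. In vessels the laminin alpha 4 and alpha 5 chains are the known endothelial ones, and integrin beta 1 pairs with most of the alpha chains that bind matrix.

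The libraries held between 26037324 and 44779020 counts, and 3 counts, taken as the floor of detection, corresponded to 0.0608 to 0.119 CPM (counts scaled to a common library size by the library total and its TMM factor). Such floors and intervals hold for counting error alone, because PCR copies of a molecule are counted separately. *Wt1* read 145, 109 and 149 CPM in *ControlΔEC* replicates 1, 2 and 3 and 14, 18.4 and 21.3 CPM in *Wt1KOΔEC* replicates 1, 2 and 3. This was a log2 fold change of -2.91 (standard error, SE, 0.22, adjusted p = 0.00319, edgeR's quasi-likelihood test with Benjamini-Hochberg adjustment). The exact permutation test for *Wt1* gave p = 0.1, the smallest that 3 against 3 allows. The 12 endothelial markers were all detected, with summed levels of 6878 to 8292 CPM in *ControlΔEC* and 6760 to 7767 CPM in *Wt1KOΔEC*. The genotypes did not overlap in some library measures. *Rn18s*, the 18S ribosomal RNA, took 13.2% to 15.3% of counts in *ControlΔEC* and 21.1% to 26.5% in *Wt1KOΔEC*. Mitochondrially encoded genes took 5.21% to 6.61% and 1.68% to 4.57%. The TMM factors were 0.9996 to 1.103 in *ControlΔEC* and 0.9153 to 0.971 in *Wt1KOΔEC*. Across log2 CPM of the genes tested, *ControlΔEC* libraries correlated with each other at 0.873 to 0.901, and *Wt1KOΔEC* libraries at 0.918 to 0.924. No batch is named in the labels. The library names run in 1 consecutive series for *ControlΔEC* and in another for *Wt1KOΔEC*, so any handling that went with these series cannot be told apart from the genotype. In sorted bulk RNA, fewer cells of a type and less RNA per cell cannot be told apart either.

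The coronary ECs expressed a narrow set of these chains at high level. Levels of different genes were compared as CPM per kb of exonic length. *Sparc*, a secreted glycoprotein that binds collagen, was the highest member at 806 ± 155 CPM per kb in *ControlΔEC* (SD, n = 3) and ranked 21 of all genes per kb. *Itgb1* followed at 209 ± 41.0 CPM per kb, above the endothelial adhesion gene *Pecam1* at 163 ± 23.5 CPM per kb (SD, n = 3). The nidogens came next, with *Nid2* at 116 ± 16.6 and *Nid1* at 96.2 ± 28.8 CPM per kb, and these levels of the nidogens overlapped between libraries.

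Per kb of exonic length, 1 gene made up most of the summed level in each chain class. In *ControlΔEC*, *Itga5*, the alpha chain of the fibronectin receptor, made up 63.6% of the summed CPM per kb of the integrin alpha genes, and *Itgb1* made up 93.9% of the beta genes. Without dividing by length, *Itga5* had a mean of 389 CPM in *ControlΔEC*, against library sums of 796 to 957 CPM for the integrin alpha genes. *Lama4* held 91.4% of the laminin alpha genes and *Lama5* 6.69%. *Lamb1* and *Lamb2* held 69% and 31.0% of the beta genes, and *Lamc1* held 95.1% of the gamma genes. The most abundant combination was thus *Lama4*, *Lamb1* and *Lamc1*, which can assemble into one of the known endothelial laminins.

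**Figure D1:**
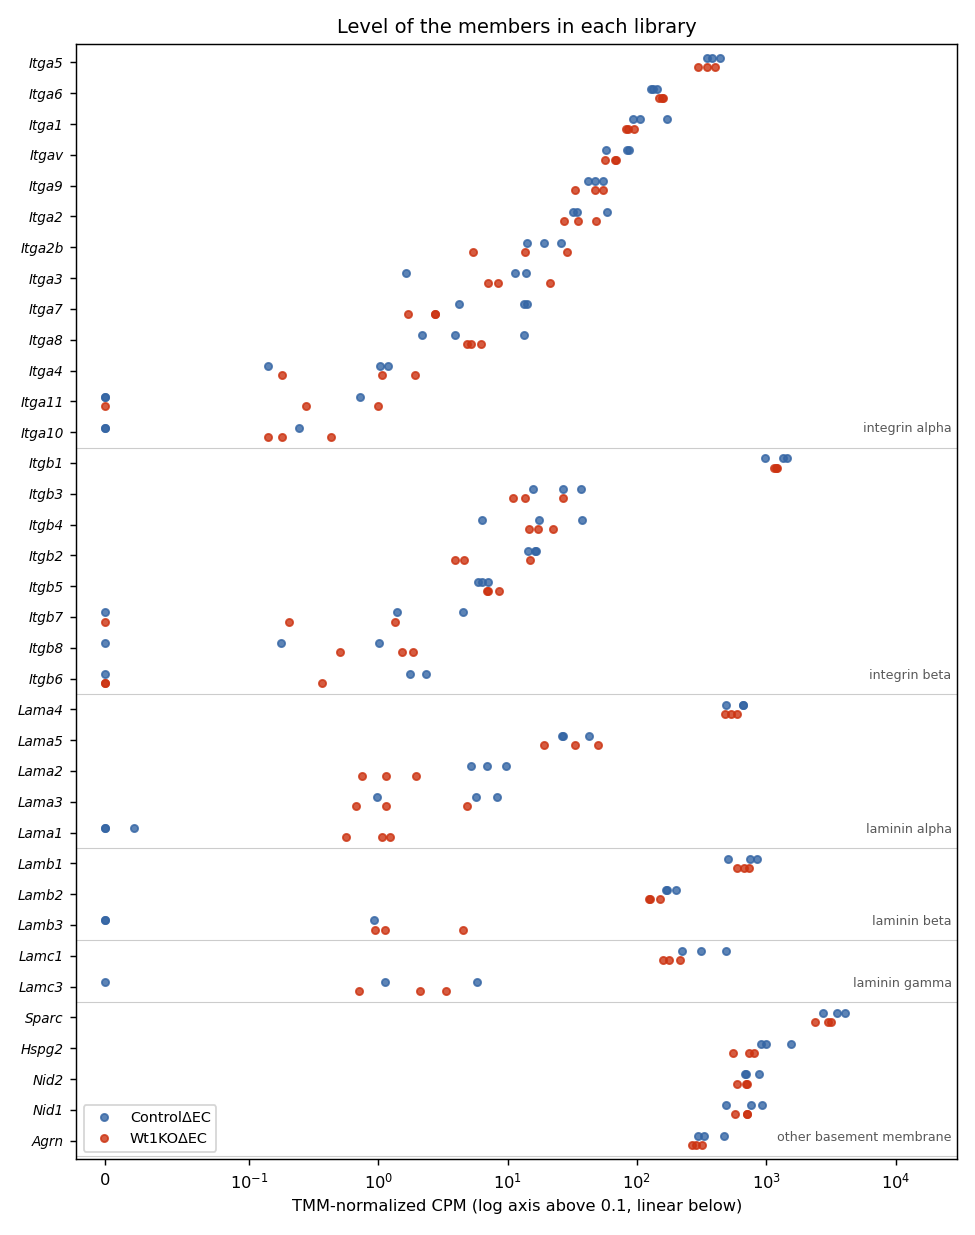
Level of 36 of the 37 members in each library, in TMM-normalized CPM (log axis above 0.1, linear below), with *ControlΔEC* in blue and *Wt1KOΔEC* in red and genes ordered by level within their class. *Itga5*, *Itgb1*, *Lama4*, *Lamb1*, *Lamc1* and *Sparc* lead their classes in both genotypes; for most genes the points of the genotypes overlap, whereas *Lama2*, *Itga7* and *Lamc1* lie lower in all 3 *Wt1KOΔEC* libraries and *Lama1* higher.

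The same genes led their classes in *Wt1KOΔEC*. *Itga5* made up 62.7% of the alpha integrins, *Itgb1* 95.7% of the beta integrins, *Lama4* 91.2% of the laminin alpha genes, *Lamb1* 73.7% of the beta genes and *Lamc1* 95% of the gamma genes. The ratio of *Lama4* to *Lama5* per kb was 18.1, 8.34 and 17.7 in *ControlΔEC* and 20.5, 8.69 and 10.6 in *Wt1KOΔEC*, so it varied more than 2-fold within each genotype. The ratio of *Lamc1* to *Lama4* per kb was 1.03, 0.895 and 0.475 in *ControlΔEC* replicates 1, 2 and 3 and 0.458, 0.504 and 0.456 in *Wt1KOΔEC*. *ControlΔEC* replicate 3 lay within the *Wt1KOΔEC* range of that ratio, and the other two lay above it.

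**Figure D2:**
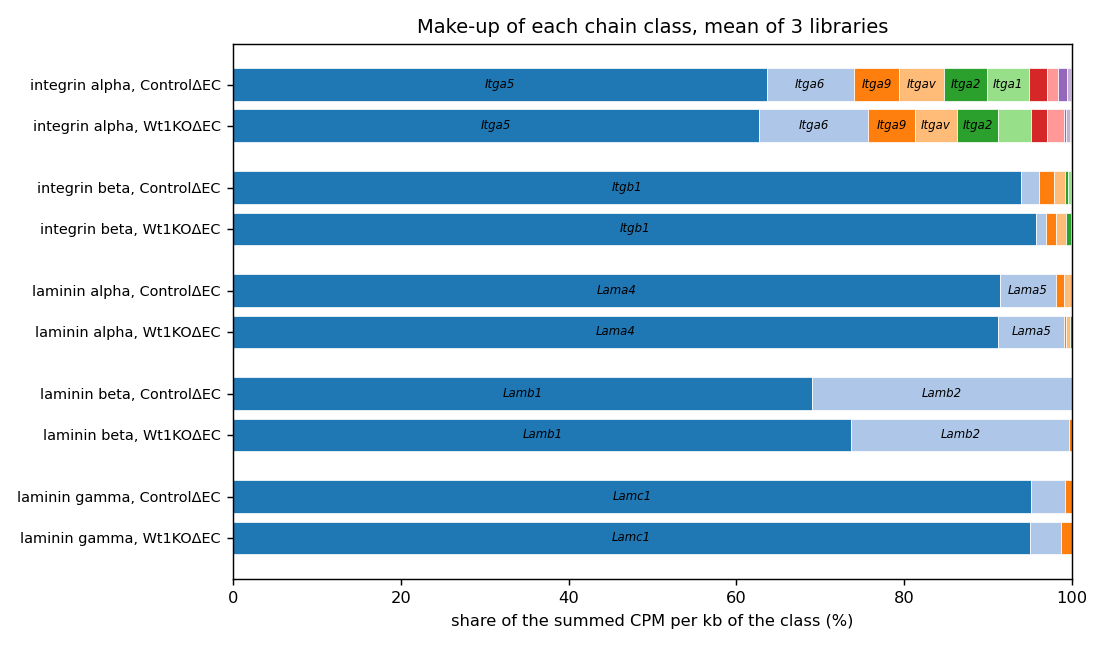
Share of each gene in the summed CPM per kb of its chain class (%), as the mean of 3 libraries per genotype. The smallest segments carry no name. In both genotypes *Itga5*, *Itgb1*, *Lama4*, *Lamb1* and *Lamc1* take the largest share of their class, and *Lamb1* goes from 69% to 73.7% of the laminin beta genes.

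Of the 37 members, 36 had at least 10 counts in at least 2 libraries and were tested; *Itga10*, which held between 0 and 11 counts, was not. None was called in *Wt1KOΔEC* against *ControlΔEC* by edgeR's quasi-likelihood test (adjusted p under 0.05 and absolute log2 fold change above 0.58), where 12 of 16296 genes tested (0.0736%) were called. At an unadjusted p under 0.05, 6 of the 36 members (16.7%) passed, against 13.1% of all genes tested. The 5 lower in *Wt1KOΔEC* were *Lamc1*, *Hspg2*, *Lamb2*, *Lama2* and *Itga7* (background 7.12%), and the 1 higher was *Lama1* (background 5.96%). DESeq2 on the same counts called 5 members, *Lamc1*, *Hspg2*, *Lama2* and *Itga7* as lower and *Lama1* as higher, which is 13.9% of those tested against 3.68% of all genes (599). By direction DESeq2 called 2.02% of all genes as lower and 1.66% as higher, and without the fold change limit 4.03% passed, with the same 5 members. limma-voom called none, against 0.0491% of all genes (8 genes). In limma-voom 9 of the 36 members had an unadjusted p under 0.05, against 13.5% of all genes tested. Differences in single members given here thus pass an adjusted threshold in DESeq2 but not in these fits of edgeR or limma-voom, pass an unadjusted one, or pass neither. With no filter on low counts edgeR also called *Lamc1*, as given below.

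The fold changes of the members leaned to the lower side. The log2 fold change was below 0 in 27 of the 36 (75%), against 52% of all genes tested, with a median of -0.18 against -0.03. All 5 nidogen, perlecan, agrin and SPARC genes, 6 of 8 integrin beta and 8 of 12 integrin alpha genes were below 0. The groups did not overlap for 9 members (25%), against 19.3% of all genes tested. Of these 6 were lower in *Wt1KOΔEC*, among them *Hspg2*, *Itga7*, *Lama2*, *Lamb2* and *Lamc1* (background 8.95%), and 3 were higher, namely *Itga6*, *Lama1* and *Lamb3* (background 10.4%).

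Over all genes, longer ones lay more often below 0, whereas highly expressed genes as a whole lay more often above 0. Of the 13 members with a mean of at least 100 CPM, 12 were below 0, against 42.1% of the 1630 genes at that level, while 23.1% of these members and 22.3% of these genes had an unadjusted p under 0.05. The members are long genes, with a median exonic length of 8.21 kb against 5.6 kb. Among genes of at least 10 CPM, those of at least 5 kb were below 0 in 56.4% (median log2 fold change -0.07), and those under 5 kb in 32.9% (median 0.17). Of the 20 members of at least 5 kb and 10 CPM, 17 (85%) were below 0. With an offset for gene length in each library, 27 of the 36 members were below 0. The median log2 fold change was then -0.20 for the members and -0.02 for all genes tested. In that fit 5 of the 6 members named above had an unadjusted p under 0.05, the exception being *Hspg2*. All 6 had such a p in a fit that left out *Rn18s* and the mitochondrially encoded genes. The part of gene length in the direction of the members was not tested.

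**Figure D3:**
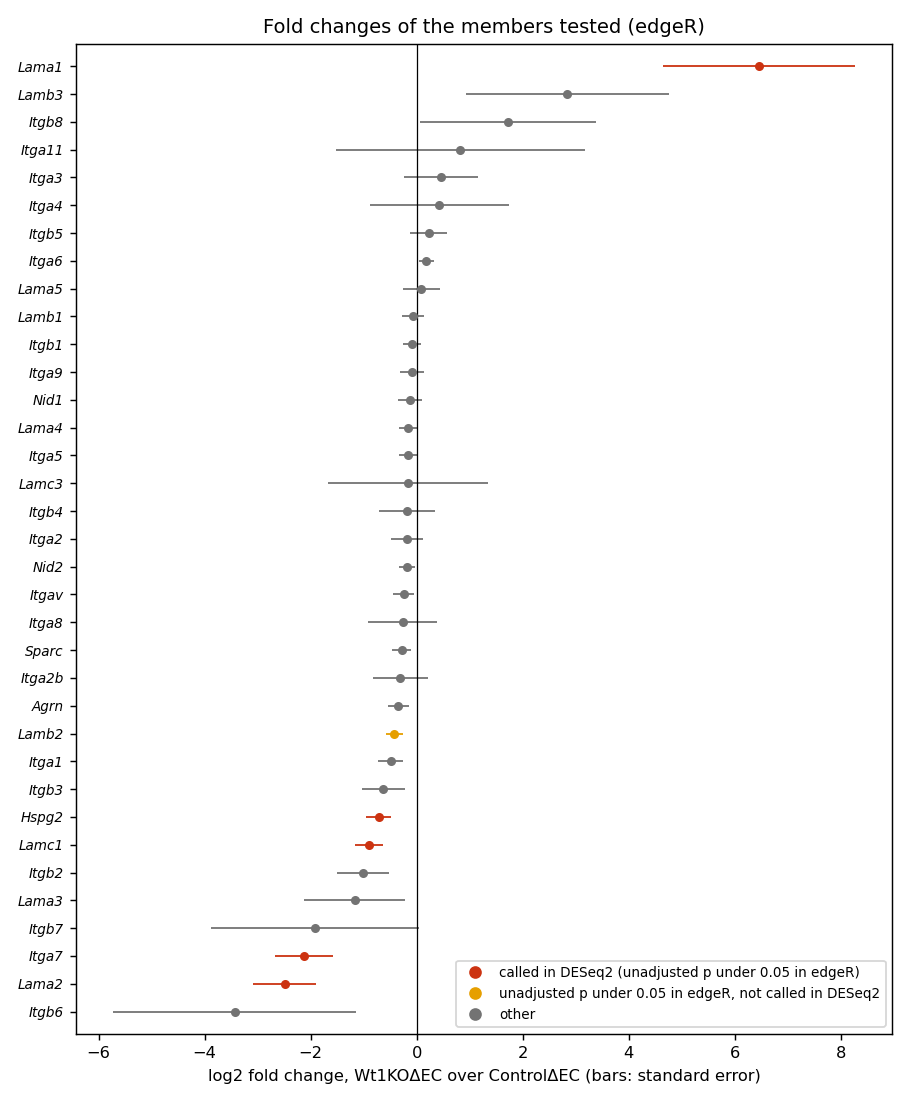
Log2 fold change of *Wt1KOΔEC* over *ControlΔEC* for 35 of the 36 members tested, from edgeR, with bars for the standard error; red marks the 5 members called by DESeq2, orange *Lamb2*, with an unadjusted p under 0.05 in edgeR but not called by DESeq2, and grey the rest. Of the members drawn, 26 lie to the left of 0, and the widest bars belong to genes near the detection floor, such as *Itgb6*, *Itga11* and *Lamb3*.

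*Lamc1* encodes laminin gamma 1, the gamma chain of most laminin trimers, including the endothelial ones with alpha 4 and alpha 5. It read 486, 313 and 225 CPM in *ControlΔEC* replicates 1, 2 and 3 and 176, 215 and 158 CPM in *Wt1KOΔEC* replicates 1, 2 and 3. Every *Wt1KOΔEC* library lay below every *ControlΔEC* library, although the lowest *ControlΔEC* value, 225 CPM, stood close to the highest *Wt1KOΔEC* value, 215 CPM. The log2 fold change was -0.90 (SE 0.27), with an adjusted p of 0.235 in edgeR's quasi-likelihood test and 0.0177 in DESeq2. Without *ControlΔEC* replicate 1, the library with the most *Lamc1*, it was -0.55 (adjusted p = 0.348 in edgeR). With no filter on low counts, edgeR's adjusted p for *Lamc1* was 0.0386. The gene (ENSMUSG00000026478.15) lies on the minus strand at chr1:153094597-153208774 of GRCm39.

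*Hspg2* encodes perlecan, and its mean level in *ControlΔEC* was 71.7 ± 21.6 CPM per kb (SD, n = 3). Its levels were 1537, 987 and 904 CPM in *ControlΔEC* and 737, 796 and 551 CPM in *Wt1KOΔEC*. The groups did not overlap, and *ControlΔEC* replicate 1 was again the highest. Its log2 fold change was -0.72 (SE 0.23, adjusted p = 0.257 in edgeR and 0.0312 in DESeq2). It was -0.44 without *ControlΔEC* replicate 1 (adjusted p = 0.383 in edgeR) and -0.60 with the offset for gene length (unadjusted p = 0.0636). The gene (ENSMUSG00000028763.19) spans chr4:137196079-137298231 of GRCm39 on the plus strand.

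*Lamb2*, the laminin beta 2 chain found with alpha 4 and alpha 5 in mature vessels, differed less. It read 167, 199 and 170 CPM in *ControlΔEC* replicates 1, 2 and 3 and 124, 151 and 125 CPM in *Wt1KOΔEC* replicates 1, 2 and 3, with no overlap. For *Lamb2* the log2 fold change was -0.42 (SE 0.16, unadjusted p = 0.0255, adjusted p = 0.310 in edgeR and 0.121 in DESeq2). The ratio of *Lamb1* to *Lamb2* per kb was 2.90, 1.44 and 2.49 in *ControlΔEC* and 3.09, 2.76 and 2.68 in *Wt1KOΔEC*, and these ranges overlapped.

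*Lama2*, the laminin alpha 2 chain known from muscle basement membranes, had a mean level of 0.409 CPM per kb in *ControlΔEC*, against 38.1 CPM per kb for *Lama4*. It read 9.72, 6.95 and 5.23 CPM in *ControlΔEC* replicates 1, 2 and 3 and 1.97, 1.15 and 0.752 CPM in *Wt1KOΔEC* replicates 1, 2 and 3. The lowest *ControlΔEC* library was more than 2-fold above the highest *Wt1KOΔEC* library. The log2 fold change was -2.49 (SE 0.59, adjusted p = 0.170 in edgeR and 0.00376 in DESeq2), and it ranged from -2.93 to -2.22 with each library left out in turn.

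*Itga7*, an integrin alpha chain that binds laminin and is best known from muscle and mural cells, also read low. Its levels were 14, 4.21 and 13.3 CPM in *ControlΔEC* and 2.76, 1.71 and 2.73 CPM in *Wt1KOΔEC*. *ControlΔEC* replicate 2 stood apart from the other two of its group, and still lay above all 3 *Wt1KOΔEC* libraries. This gave a log2 fold change of -2.13 (SE 0.54, adjusted p = 0.202 in edgeR and 0.0129 in DESeq2).

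The summed markers of mural cells were lower too. The summed level of the 10 mural markers was 477 to 643 CPM in *ControlΔEC* and 329 to 389 CPM in *Wt1KOΔEC*, and 4 of the 9 tested had an unadjusted p under 0.05, all lower in *Wt1KOΔEC* (*Rgs5*, *Pdgfrb*, *Cspg4* and *Abcc9*). *Acta2* and *Tagln*, genes of the same list, had log2 fold changes of -0.04 (SE 0.25) and 0.92 (SE 0.85), with overlap. *Rgs5* is known from pericytes, but the study lists it, and *Kcnj8* of this list, among arterial markers. *Rgs5* read 165, 26.8 and 163 CPM in *ControlΔEC* and 25.4, 17.9 and 19.4 CPM in *Wt1KOΔEC*, with *ControlΔEC* replicate 2 far below the rest of its group. The smooth muscle gene *Myh11* was at 0 in 4 of the 6 libraries. The part of mural cells in the levels of *Lama2* and *Itga7* was not tested.

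**Figure D4:**
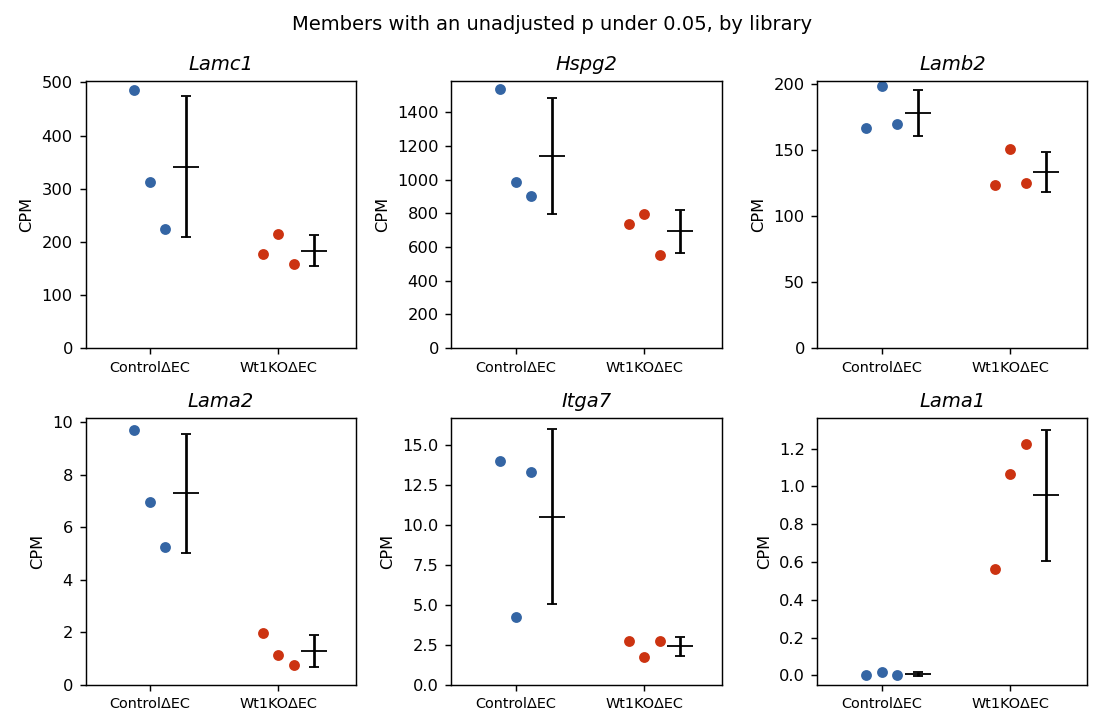
CPM per library (points) with the group mean and SD (bars, n = 3) for the 6 members with an unadjusted p under 0.05. The points of the genotypes do not overlap in any panel; *ControlΔEC* replicate 1 is the highest for *Lamc1* and *Hspg2*.

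*Lama1*, the laminin alpha 1 chain of early embryonic and epithelial basement membranes, was higher in *Wt1KOΔEC*, at a very low level. It had 0, 1 and 0 counts in *ControlΔEC* replicates 1, 2 and 3, which is under the floor of 3 counts per library, and 22, 38 and 31 counts in *Wt1KOΔEC* replicates 1, 2 and 3. That is 0.563, 1.07 and 1.23 CPM in *Wt1KOΔEC*, 0.262% of the laminin alpha transcript per kb. Summed over libraries, the ratio of *Wt1KOΔEC* to *ControlΔEC* was 112, with a 95% counting interval from 19.6 to 4470. The adjusted p was 0.220 in edgeR and 0.0282 in DESeq2. The gene (ENSMUSG00000032796.9) lies at chr17:68004223-68129642 of GRCm39, on the plus strand.

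The summed epicardial and fibroblast markers were also higher in *Wt1KOΔEC*. The 10 epicardial markers summed to 37.8 to 55.2 CPM in *ControlΔEC* and 69.9 to 87.3 CPM in *Wt1KOΔEC*. *Upk3b* and *Msln* were higher past an unadjusted p of 0.05. Of the 10, 2 had a log2 fold change below 0, and *Clu* had one of 0.25 (SE 0.32) with overlap. None of the 10 was at 0 in all libraries of a genotype. The 10 fibroblast markers summed to 684 to 989 CPM and 1353 to 1555 CPM. At an unadjusted p under 0.05, 5 of them were higher (*Col1a1*, *Col1a2*, *Col3a1*, *Dcn* and *Pdgfra*). The study lists *Col1a1*, *Col3a1* and *Dcn* among venous markers. Of the 10, 3 had a log2 fold change below 0, among them *Dpt* at -1.60 (SE 0.85) with no overlap. The part of epicardial cells and fibroblasts in the *Lama1* counts was not tested.

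The groups of *Itga6* and *Lamb3* did not overlap either. *Itga6*, which pairs with beta 1 or beta 4 to bind laminin, read 129, 134 and 144 CPM in *ControlΔEC* and 159, 155 and 149 CPM in *Wt1KOΔEC*, close ranges with a log2 fold change of 0.18 (SE 0.14, adjusted p = 0.668 in edgeR). *Lamb3*, a laminin beta chain of epithelia, read 0, 0 and 0.936 CPM in *ControlΔEC* and 1.13, 4.55 and 0.949 CPM in *Wt1KOΔEC*. The lowest *Wt1KOΔEC* value of *Lamb3*, 0.949 CPM, lay next to the highest *ControlΔEC* value, 0.936 CPM, and its adjusted p was 0.606 in edgeR. *Lama3*, a laminin alpha chain of epithelia, had a log2 fold change of -1.17 (SE 0.95, adjusted p = 0.694 in edgeR), which became -2.45 without *Wt1KOΔEC* replicate 2 and -0.59 without *ControlΔEC* replicate 1.

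RefSeq promoter windows, from 250 bases before to 50 bases after a start site on GRCm38.p6, were held for 25 of the members (29 windows). WT1 is a zinc finger factor known to bind GC-rich sites, and the windows were searched on both strands for GCGTGGGCG and for GCGGGGGCG. The first occurred in no window of a member and in 0.612% of all 32851 windows, the second in a window of *Agrn* and of *Lamb1* and in 2.91% of all windows. The motifs differ in 1 letter, so the same bases cannot match both. The windows of 3 members that read lower are shown because they differ widely in base composition, with that of *Lamb1* for its match, in capitals, which is the reverse complement of GCGGGGGCG. Windows of *Lamc1*, *Itga7* and *Lama1* were not used here. A match is a description of letters and not a binding site.
Hspg2, plus strand, chr4:137468553-137468852: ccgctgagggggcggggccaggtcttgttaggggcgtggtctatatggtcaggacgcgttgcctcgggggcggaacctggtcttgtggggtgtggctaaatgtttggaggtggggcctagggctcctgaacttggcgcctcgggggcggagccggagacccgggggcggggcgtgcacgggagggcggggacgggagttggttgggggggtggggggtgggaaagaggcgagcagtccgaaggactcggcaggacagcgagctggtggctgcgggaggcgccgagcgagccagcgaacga
Lamb2, plus strand, chr9:108479612-108479911: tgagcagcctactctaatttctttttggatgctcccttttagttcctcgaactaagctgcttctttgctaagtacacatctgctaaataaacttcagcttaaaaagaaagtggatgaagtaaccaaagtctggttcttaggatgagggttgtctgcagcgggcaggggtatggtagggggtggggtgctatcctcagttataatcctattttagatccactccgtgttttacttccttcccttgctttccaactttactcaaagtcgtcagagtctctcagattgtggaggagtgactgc
Lama2, minus strand, chr10:27616893-27617192: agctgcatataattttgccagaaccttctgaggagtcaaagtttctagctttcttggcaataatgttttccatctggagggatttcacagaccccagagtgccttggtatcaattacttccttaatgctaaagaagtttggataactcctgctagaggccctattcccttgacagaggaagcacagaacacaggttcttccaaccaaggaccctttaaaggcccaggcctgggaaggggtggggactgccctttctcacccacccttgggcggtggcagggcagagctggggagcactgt
Lamb1, plus strand, chr12:31265043-31265342: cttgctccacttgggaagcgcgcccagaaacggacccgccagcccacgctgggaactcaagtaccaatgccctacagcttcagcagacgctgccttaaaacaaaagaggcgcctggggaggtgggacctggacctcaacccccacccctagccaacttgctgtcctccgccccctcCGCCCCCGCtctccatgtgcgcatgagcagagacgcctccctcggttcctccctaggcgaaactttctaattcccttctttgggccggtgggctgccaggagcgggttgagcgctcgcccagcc
The window of *Hspg2* has 70.3% G and C and 27 CpG sites, that of *Lamb2* 44.0% and 4 CpG sites, and that of *Lama2* 50.3% and 1 CpG site. *Lamb1*, whose window has 63.7% G and C and 18 CpG sites, and *Agrn* did not pass the unadjusted threshold.

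For the most abundant chains of the other classes the libraries of the genotypes overlapped. *Itgb1*, the common beta chain of matrix-binding integrins, read 1338, 974 and 1439 CPM in *ControlΔEC* and 1192, 1199 and 1138 CPM in *Wt1KOΔEC*, and the *Wt1KOΔEC* libraries lay inside the *ControlΔEC* range. Its log2 fold change was -0.09, with a 95% interval from -0.47 to 0.29. *Itga5* read 436, 383 and 346 CPM in *ControlΔEC* and 345, 402 and 296 CPM in *Wt1KOΔEC*, with overlap and a log2 fold change of -0.16 (95% interval -0.54 to 0.22).

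*Lama4*, the main endothelial laminin alpha chain, read 656, 486 and 656 CPM in *ControlΔEC* and 534, 593 and 482 CPM in *Wt1KOΔEC*. *Lamb1* read 853, 504 and 744 CPM in *ControlΔEC* and 676, 732 and 591 CPM in *Wt1KOΔEC*. For both, *ControlΔEC* replicate 2 was low and the groups overlapped, with log2 fold changes of -0.16 (95% interval -0.54 to 0.22) and -0.07 (95% interval -0.53 to 0.39). *Sparc* read 4064, 2749 and 3496 CPM in *ControlΔEC* and 3156, 2972 and 2363 CPM in *Wt1KOΔEC*, also with overlap, and its log2 fold change was -0.28 (95% interval -0.68 to 0.12).

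The linkers of the basement membrane overlapped between the genotypes as well. *Nid1* and *Nid2*, which connect laminin to type IV collagen, had log2 fold changes of -0.12 (SE 0.23) and -0.18 (SE 0.16). *Agrn*, a heparan sulphate proteoglycan that binds laminin and dystroglycan, was at 298, 474 and 328 CPM in *ControlΔEC* and 284, 317 and 264 CPM in *Wt1KOΔEC*, with 1 library, *ControlΔEC* replicate 2, above the rest. Its log2 fold change was -0.35 (SE 0.20, adjusted p = 0.512 in edgeR). *Lama5*, the other endothelial laminin alpha chain, had a log2 fold change of 0.09 (SE 0.35), and its sign changed with the library left out.

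Among the collagen-binding alpha chains, *Itga1* and *Itga2* were well expressed. *Itga1* read 170, 93.0 and 106 CPM in *ControlΔEC* and 94.7, 86.0 and 81.8 CPM in *Wt1KOΔEC*, so that the groups met at *ControlΔEC* replicate 2. Its log2 fold change was -0.49 (SE 0.23, adjusted p = 0.404 in edgeR), and -0.19 without *ControlΔEC* replicate 1. *Itga2* had a log2 fold change of -0.18 (SE 0.30). *Itga11*, the fibrillar collagen receptor of fibroblasts, was at 0 in 3 of 6 libraries, and *Itga10*, known from cartilage, was in no library above 0.435 CPM.

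The alpha chains that recognise the RGD peptide of fibronectin and vitronectin were *Itga5*, *Itgav*, *Itga8* and *Itga2b*. *Itgav* stood at 76.0 ± 16.1 CPM in *ControlΔEC* and 64.2 ± 6.91 CPM in *Wt1KOΔEC* (SD, n = 3), with overlap. *Itga8* ranged from 2.19 to 13.4 CPM within *ControlΔEC*, and its sign turned to 0.82 without *ControlΔEC* replicate 3. *Itga9*, a receptor for tenascin C and VEGFs, stood at 48.0 ± 6.45 and 45.1 ± 10.7 CPM (SD, n = 3), with overlap. *Itga3*, a laminin receptor of epithelia, and *Itga4*, which pairs with beta 1 to bind VCAM1, had log2 fold changes of 0.46 (SE 0.70) and 0.43 (SE 1.31) and changed sign when single libraries were left out.

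*Itga2b* and *Itgb3* form the fibrinogen receptor of platelets, and *Itgb3* also pairs with *Itgav* in ECs. *Itga2b* ranged from 14.1 to 26 CPM in *ControlΔEC* and from 5.42 to 28.7 CPM in *Wt1KOΔEC*. *Itgb3* read 37.0, 15.8 and 27.0 CPM in *ControlΔEC* and 11.1, 26.8 and 13.6 CPM in *Wt1KOΔEC*, with overlap and a log2 fold change of -0.63 (SE 0.41, adjusted p = 0.581 in edgeR). The 9 markers of megakaryocytes and platelets summed to 33.0 to 65.3 CPM in *ControlΔEC* and 30.9 to 56.5 CPM in *Wt1KOΔEC*, and the part of those cells was not tested.

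*Itgb2* is the beta chain of the leukocyte integrins. It read 16.4, 14.4 and 16.3 CPM in *ControlΔEC* and 14.8, 4.63 and 3.92 CPM in *Wt1KOΔEC*, where *Wt1KOΔEC* replicate 1 lay within the *ControlΔEC* range and the other two lay below it. The log2 fold change was -1.01 (SE 0.49, adjusted p = 0.430 in edgeR), and -1.87 without *Wt1KOΔEC* replicate 1. Its partner chains are not among the members; of the 4 genes tested in the list of leukocyte integrins, *Itgal* and *Itgam* were lower at an unadjusted p under 0.05. The 10 macrophage markers were all detected in every library, 6 of them lower at that threshold, and summed to 332 to 983 CPM in *ControlΔEC* and 269 to 362 CPM in *Wt1KOΔEC*. The part of macrophages in the *Itgb2* level was not tested.

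Of the remaining beta chains, *Itgb4*, the partner of alpha 6 in hemidesmosomes, ranged from 6.30 to 37.6 CPM within *ControlΔEC*, and *Itgb5* stood at 6.43 ± 0.563 CPM in *ControlΔEC* and 7.52 ± 0.939 CPM in *Wt1KOΔEC* (SD, n = 3). *Itgb6*, *Itgb7* and *Itgb8* were at 0 in between 1 and 3 libraries each and had standard errors of the log2 fold change between 1.66 and 2.29. A difference in these genes, in *Lamc3* (SE 1.5) or in *Itga11* (SE 2.35), did not pass the test, and their standard errors were large. Exons of 6 members share at least 10% of their length with another gene (*Itga1*, *Itga10*, *Itga2b*, *Itga4*, *Itgb4* and *Nid2*), and their counts are uncertain for that reason. For 5 of them that gene lies on the opposite strand, and the library kit does not mark strand, while *Gm42957* lies on the strand of *Itga10* and holds 33.5% of its exonic bases.

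**Figure D5:**
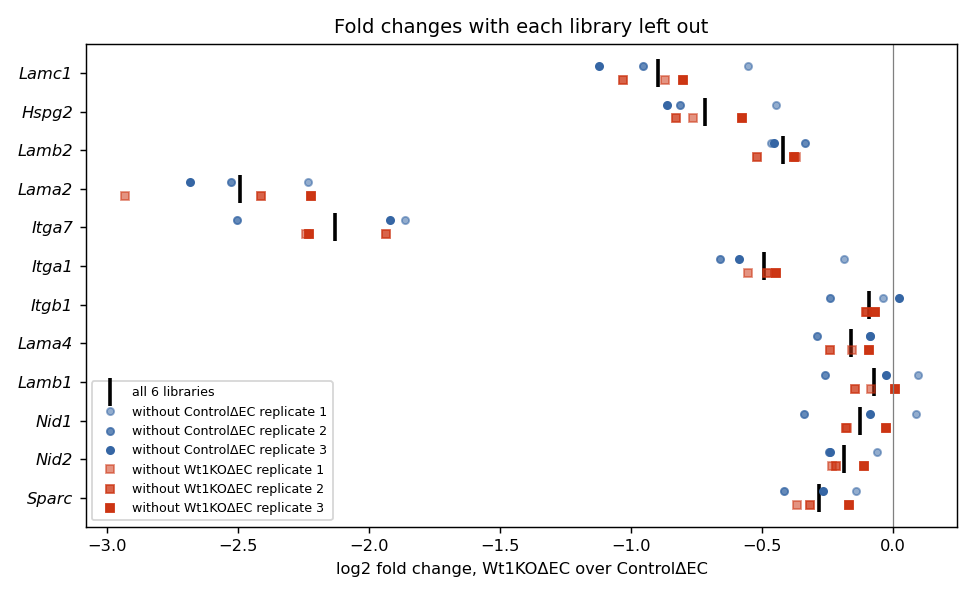
Log2 fold change of 12 members from edgeR with all 6 libraries (black bars) and after removal of 1 library at a time (blue circles for *ControlΔEC*, red squares for *Wt1KOΔEC*). *Lamc1*, *Hspg2*, *Lamb2*, *Lama2*, *Itga7* and *Itga1* stay left of 0 throughout, and *Lamc1*, *Hspg2* and *Itga1* come closest to 0 without *ControlΔEC* replicate 1; *Itgb1*, *Lamb1* and *Nid1* lie on both sides of 0.

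Of 33 adhesion genes that connect integrins to the cytoskeleton, 26 (78.8%, against 52% of all genes tested) had a log2 fold change below 0 (median -0.19). None was called by edgeR and 2 were called by DESeq2 (6.06%, against 3.68%). At an unadjusted p under 0.05, 4 were lower and 1 was higher, together 15.2% and close to the 13.1% of all genes. *Lims2*, a PINCH adaptor of integrin-linked kinase, had a log2 fold change of -1.41 (SE 0.39), and *Rap1b*, a GTPase that activates integrins through talin, of -1.07 (SE 0.36). The groups of *Rap1b* overlapped, and *ControlΔEC* replicate 1 was its highest library. *Tln2*, a talin, was the 1 higher gene, at 0.80 (SE 0.30). The 2 called by DESeq2 were *Lims2* and *Rap1b*.

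Other receptors for laminin and collagen gave 4 lower and 0 higher genes of 17 tested at an unadjusted p under 0.05. Of all genes, 7.12% were lower and 5.96% higher at that threshold. The median log2 fold change of this list was -0.05. *Utrn*, which encodes utrophin, the link from dystroglycan to actin, read 125, 144 and 152 CPM in *ControlΔEC* and 73.8, 85.3 and 69.7 CPM in *Wt1KOΔEC*, with no overlap. Its log2 fold change was -0.88 (SE 0.16, adjusted p = 0.108 in edgeR), and it was the 1 gene of this list called by DESeq2, against 3.68% of all genes. *Cd9*, a tetraspanin that associates with integrins, and *Bcam*, a receptor for laminin alpha 5, had log2 fold changes of -0.45 (SE 0.17) and -0.43 (SE 0.17).

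Basement membrane components outside the 37 members lay on both sides of 0. Of 24 tested, 11 were below 0 (median 0.14), against 52% of all genes tested. At an unadjusted p under 0.05, 6 were higher and 4 lower, against 5.96% and 7.12% of all genes. DESeq2 called 6, against 3.68% of all genes, and edgeR 0. *Col4a5*, a type IV collagen chain, read 3.53, 6.81 and 5.48 CPM in *ControlΔEC* and 17.4, 20.2 and 15.2 CPM in *Wt1KOΔEC*, a log2 fold change of 1.74 (SE 0.34). *Loxl2*, which crosslinks type IV collagen, had a log2 fold change of 1.26 (SE 0.34). *Papln*, *Frem1* and *Pxdn*, the last encoding the peroxidase that forms sulfilimine bonds in type IV collagen, had log2 fold changes of -1.90 (SE 0.43), -0.99 (SE 0.31) and -0.71 (SE 0.18).

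Other integrin ligands likewise split, with a median log2 fold change of 0.19. At an unadjusted p under 0.05, 5 of 22 tested were higher and 3 lower, against 5.96% and 7.12% of all genes. DESeq2 called 5, against 3.68% of all genes, and edgeR 0. *Mmrn1*, *Ccn2* and *Edil3* had log2 fold changes of 1.66 (SE 0.41), 1.03 (SE 0.36) and 0.84 (SE 0.31). *Ccn3* and *Mfge8*, a ligand of the alpha v integrins, had log2 fold changes of -2.33 (SE 0.56) and -0.64 (SE 0.16). *Ccn3* read 24.6, 5.25 and 27.6 CPM in *ControlΔEC* and 3.22, 4.15 and 4.07 CPM in *Wt1KOΔEC*, with *ControlΔEC* replicate 2 far below the rest of its group.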

How the data were processed

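RNA-Seq libraries of mGFP-sorted ECs were prepared by the authors with SMART-seq2, an oligo-dT primed protocol without molecular identifiers, and Nextera XT. The deposited values are expected counts per gene made by the authors with STAR 2.7.8a and RSEM 1.3.0, given as whole numbers without normalization. The study's methods name GRCm39 with GENCODE vM27, whereas the submitters' processing notes name GRCm38, so coordinates were taken from GENCODE vM39 by gene ID (54749 of 55416 IDs, 98.8%) and none from the files. Columns were assigned to samples by the library names in the labels, with 0 columns left over. Library totals ran from 26037324 to 44779020 counts.

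The 16296 genes that reached 10 counts in 2 or more libraries were compared in R 4.3.3 with edgeR 4.0.16 (TMM, quasi-likelihood F test) and Benjamini-Hochberg adjustment over all of them. A gene was called at an adjusted p under 0.05 with an absolute log2 fold change above 0.58. Standard errors were derived by dividing the absolute log2 fold change by the root of the F statistic, and intervals are at 95%. With 3 libraries per group p-values rest on the spread between these libraries. Exonic lengths are unions of exons in GENCODE vM39. Promoter windows are RefSeq's on GRCm38.p6. Alternatives were DESeq2 1.42.0, limma-voom (limma 3.58.1), other normalizations and filters, protein-coding genes only, removal of *Rn18s* and the mitochondrially encoded genes, the replicate number as a block and each library left out. DESeq2 on all genes in the table and an offset for gene length (natural spline, 5 degrees of freedom) were chosen after seeing the data. The steps were tested on simulated data.

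The members and the pathway and marker lists were chosen with earlier results of these data known. Values per library are given for members with an unadjusted p under 0.05 or groups that did not overlap and for the leading chain of each class. 1 member and 1 gene of the adhesion list are not reported here. From each pathway list up to 3 higher and 3 lower genes of at least 10 CPM with an unadjusted p under 0.05 are named. *Agrn*, *Itga1*, *Itgb2*, *Itgb3*, *Rgs5*, *Utrn*, *Col4a5* and *Ccn3* were chosen for values per library after these were seen. *Itgal*, *Itgam*, *Plvap*, *Col4a1*, *Col4a2*, *Clu*, the fibroblast markers and the erythroid genes were likewise named after their values were seen. Marker lists were also made for cardiomyocytes, erythroid cells, Schwann cells, endocardium and lymphatic endothelium.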

Additional observations from a re-analysis of the deposited data

How the results depend on the processing

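No member was called by edgeR with any normalization or with any library left out, and the counts of calls depended on the tool and filter. The main fit called 12 of 16296 genes and 0 of 36 members, and DESeq2 called 599 of these genes and 5 of these members. Applied to every gene of the table, DESeq2 called 767 of 55416 genes and 5 of 37 members. With no filter edgeR called 296 of 24536 genes and 1 of 37 members (*Lamc1*). On genes with at least 10 counts in every library edgeR called 113 of 11996 genes and 0 of 28 members. With the offset for gene length it called 6 of 16238 genes and 0 of 36 members. The cause of these differences was not tested. With single libraries left out, between 2 genes (without *Wt1KOΔEC* replicate 3) and 37 genes (without *ControlΔEC* replicate 3) were called. It was 4 without *ControlΔEC* replicate 1, 26 without *ControlΔEC* replicate 2, and 3 without *Wt1KOΔEC* replicate 1 or 2. The number of members with an unadjusted p under 0.05 was 6, against 13.1% of all genes. With single libraries left out it lay between 5 and 9, against 8.43% to 15.7% of all genes. It rose to 12 (1 higher, 11 lower) with scaling by library size only, against 14.7% of all genes. That scaling moved the median log2 fold change of all genes from -0.03 to -0.18 and that of the members from -0.18 to -0.35. Over all alternatives between 24 and 29 members were below 0, of 28 to 37 tested. With the replicate number as a block, 5 genes and 0 members were called. Deviations of same-numbered libraries correlated at 0.0566, 0.00448 and 0.0201, and those of differently numbered libraries at -0.0429 to 0.025. Correlations this small cannot tell whether same-numbered libraries share a litter or a day. The main fit did not pair them. Without dividing by length, 1 member rather than 2 stood above *Pecam1*. *Wt1* stayed called in every alternative, with log2 fold changes from -3.05 to -2.76. The log2 fold changes of the 5 members called by DESeq2 kept their sign in every alternative that tested them. For members near the floor of 0.0608 to 0.119 CPM depth limits what can be seen.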

Other observations

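Endothelial subtypes other than coronary ECs were also compared through their markers. The 6 endocardial markers summed to 389 to 488 CPM in *ControlΔEC* and 734 to 858 CPM in *Wt1KOΔEC*, with 3 higher at an unadjusted p under 0.05, 2 called by DESeq2 and 1 by edgeR. The gene called by edgeR was *Plvap*, a protein of fenestrated endothelium, at 63.1, 82.7 and 58.4 CPM in *ControlΔEC* and 331, 361 and 321 CPM in *Wt1KOΔEC*. Without *Plvap* the other 5 markers summed to 323 to 430 CPM and 403 to 497 CPM, and the groups overlapped. The 7 lymphatic endothelial markers summed to 336 to 373 CPM and 467 to 685 CPM, with 3 higher at that threshold, 3 called by DESeq2 and 0 by edgeR. Erythroid markers summed to 6573 to 14370 CPM in *ControlΔEC* and 5143 to 8545 CPM in *Wt1KOΔEC*. Of the 9, DESeq2 called 4 and edgeR 0: the embryonic globins *Hbb-y* and *Hba-x* were higher (log2 fold changes 2.57 and 2.11), and *Alas2*, an enzyme of heme synthesis, and the globin *Hbb-bt* were lower (-1.15 and -0.79). Reads of such similar globin genes may be shared between them. Cardiomyocyte markers summed to 218 to 298 CPM and 178 to 392 CPM, and Schwann cell and neural crest markers to 0 to 5.15 CPM and 1.38 to 3.48 CPM, with overlapping groups and 0 called by DESeq2 or edgeR or with an unadjusted p under 0.05. The sums of the erythroid markers overlapped too. Whether these cells bear on the levels of the integrins and laminins was not tested.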
